A study of Mus musculus with 8 samples.

Results

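The interferon regulatory factor (Irf) family was followed in mouse ovarian tumours of mice given the JAK inhibitor AZD1480. Members were taken by name: every array spot that is not a control and that the array files name Irf1, Irf2, Irf3, Irf4, Irf5, Irf7, Irf8 or Irf9. The 8 genes, out of 27240 genes with a named probe, had 9 probes, since Irf1 had a second one. The AZD1480 group held 4 tumours from female C57BL/6J mice with the MISIIR-TAg transgene, collected 6 hours after 30 mg/kg AZD1480. The vehicle group held 4 tumours from mice of the same sex and genotype, collected at the same time after the hypermellose and Tween 80 solution in which the drug was given. All tumours had reached about 500 mm3. In the transgene the SV40 T antigen is driven by the Amhr2 promoter, which is active in the gonads and belongs to the receptor for Müllerian inhibiting substance, so every tumour, treated or not, arose with that viral oncoprotein. AZD1480 is an ATP-competitive inhibitor of the Janus kinases JAK1 and JAK2.

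Irf proteins are transcription factors that share an N-terminal DNA-binding domain and bind GAAA repeats, as found in the interferon-stimulated response element (ISRE). Type I interferon signals through the Ifnar1-Ifnar2 receptor and the kinases Jak1 and Tyk2 to ISGF3, a complex that holds Stat2 and Irf9 and binds ISREs. Interferon gamma signals through Ifngr1-Ifngr2, Jak1 and Jak2 to gamma-activated sites (GAS) in DNA. Irf3 and Irf7 induce the interferon genes, Irf1 activates antigen-presentation genes, Irf2 can oppose Irf1, and Irf4, Irf5 and Irf8 act mainly in lymphoid and myeloid cells.

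The upstream sequences below show where the letters of a GAS or Irf binding element stand next to these genes. They come from RefSeq on GRCm38.p6, where all 8 genes matched, with 11 windows of 300 bases around annotated starts. On both strands 2 motifs were searched, the ISRE core GAAANNGAAA and the palindromic GAS element TTCNNNGAA. Capitals mark the matches, which do not overlap each other. Irf1 is shown at chr11:53769894-53769962 (plus strand), Irf2 at chr8:46739495-46739559 (plus strand) and Irf8 at chr8:120736157-120736243 (plus strand).
Irf1: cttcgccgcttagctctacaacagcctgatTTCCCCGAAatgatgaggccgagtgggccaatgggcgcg
Irf2: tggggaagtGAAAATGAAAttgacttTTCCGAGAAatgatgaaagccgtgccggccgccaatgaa
Irf8: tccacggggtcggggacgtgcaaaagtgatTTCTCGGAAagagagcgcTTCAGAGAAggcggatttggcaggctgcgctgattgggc

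The GAS letters stood 90 bases before the start of Irf1, 224 before that of Irf2, and 171 and 153 before that of Irf8. The ISRE core stood 241 bases before the start of Irf2. Of all 32851 windows of this length, 8.3% held the GAS letters and 3.44% held the ISRE core. Among the 11 member windows, 3 held the first and 1 held the second. The windows of Irf3, Irf4, Irf5, Irf7 and Irf9 held no match, which says only that these letters are not in those windows. The 100 bases before the first annotated start of Irf7 (chr7:141266425-141266524, minus strand) and of Irf9 (chr14:55603885-55603984, plus strand) are shown because these were the 2 genes whose groups did not overlap.
Irf7: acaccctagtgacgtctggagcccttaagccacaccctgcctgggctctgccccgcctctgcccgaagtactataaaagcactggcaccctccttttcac
Irf9: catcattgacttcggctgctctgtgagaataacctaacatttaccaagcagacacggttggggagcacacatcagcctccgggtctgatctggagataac

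The transcripts were read with 60-base probes on one-colour arrays, with 8 arrays on 2 slides, each slide holding 2 AZD1480 and 2 vehicle tumours. Values are log2 processed intensities relative to the 75th percentile of the same array, so 0 means a signal equal to that percentile. Slide 1 was the brighter one, with percentiles of 4706 to 5795, against 1587 to 2783 on slide 2. Between 66.92% and 76.45% of the spots of an array were well above background. AZD1480 replicate 1 stood apart: its root mean square log2 distance from the other arrays of its group was 1.62, against 0.59 to 1.01 for the other 7 arrays. Results of members and lists that move by more than 1.5 times without it are given both ways, except for some differences near 0. The label ovarian tumour was checked on 12 epithelial and ovarian tumour markers, all 12 of which were measured, and they differed widely among tumours. The cytokeratin Krt18 read 3.40 to 5.24 in AZD1480 tumours and 4.18 to 5.88 in vehicle tumours. The epithelial adhesion gene Epcam read -5.46 to -3.44 in AZD1480 tumours and -4.65 to -0.29 in vehicle tumours. Amhr2, whose promoter drives the transgene, read -0.75 to 6.83 in AZD1480 tumours and 0.07 to 5.39 in vehicle tumours, and Muc16 was well above background on 7 of the 8 arrays. In whole tumours, fewer cells of a type and less RNA per cell cannot be told apart.

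Among the 8 genes, Irf7 and Irf9 were lower in all 4 AZD1480 tumours than in any vehicle tumour, while Irf3 was nearly level between the groups. Of the 7 genes measured well enough to test, 6 had a lower mean in AZD1480 tumours, where 43.5% of the 19778 genes tested did. No member passed the test: limma called 0 genes (0%) at a Benjamini-Hochberg adjusted p under 0.05, and the smallest adjusted p of any gene was 0.647. At an unadjusted limma p under 0.05 stood 685 genes, fewer than the 989 expected if no gene differed. At the unadjusted threshold, 1.74% of genes were lower and 1.72% higher, and 2 of the 7 members, Irf7 and Irf9, were among the lower ones. Genes lower in every AZD1480 tumour than in every vehicle tumour made up 1.41% of those tested, and the same 2 members were among them. All differences below are measured differences that did not pass the adjustment over all genes.

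**Figure D1:**
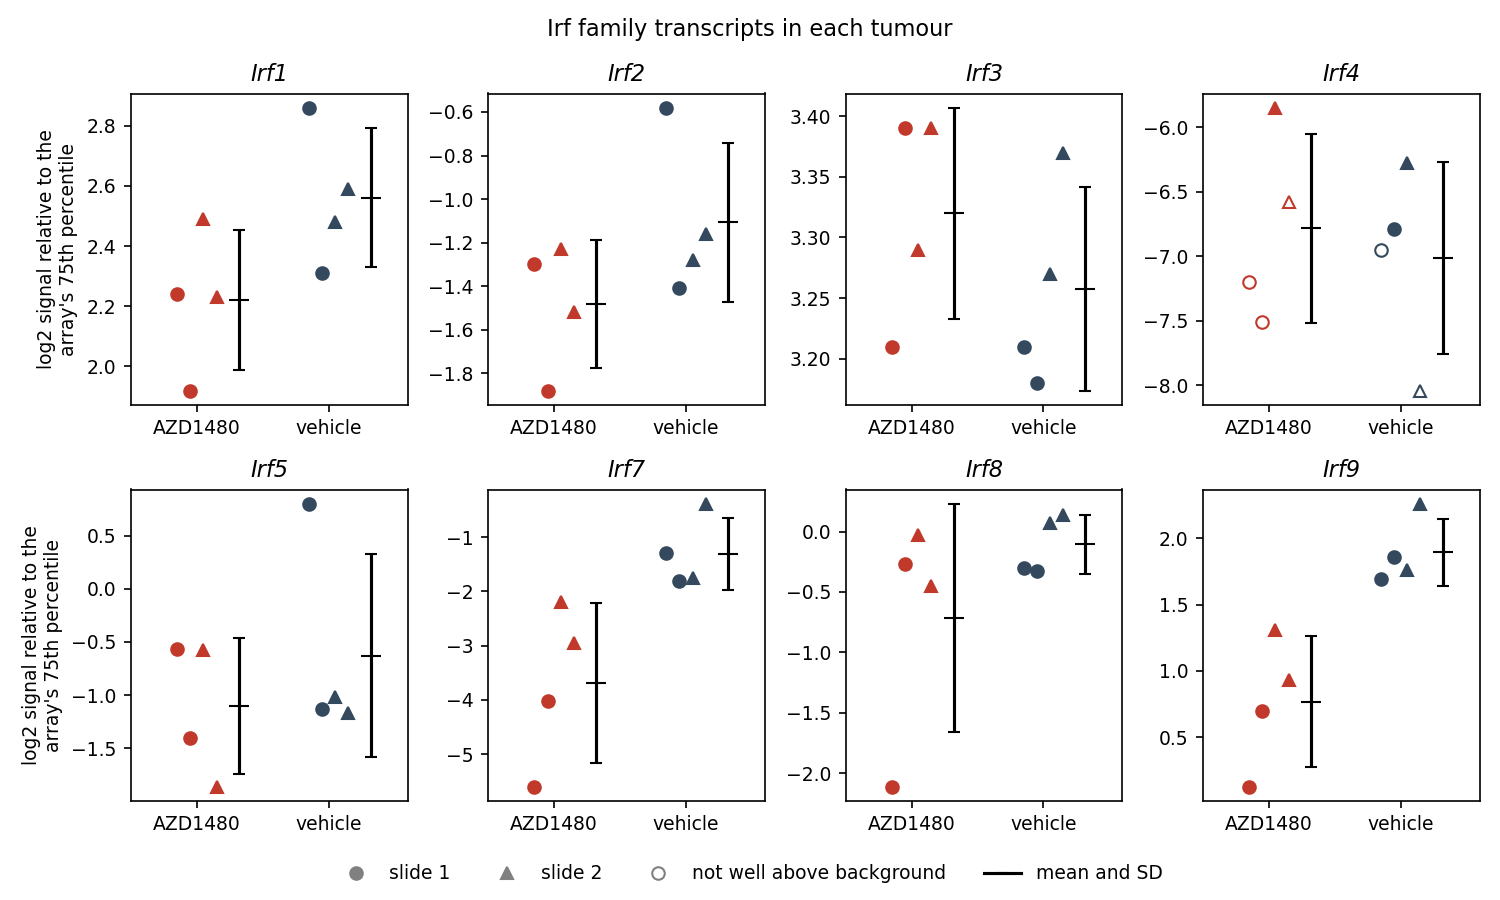
Log2 signal relative to the array's 75th percentile for each Irf gene (the tested probe, and Irf4's only probe), with AZD1480 tumours on the left and vehicle tumours on the right of each panel; circles are slide 1, triangles slide 2, open symbols not well above background, and bars the mean and SD of 4 tumours. Irf7 and Irf9 are the panels in which all 4 AZD1480 tumours sit below all 4 vehicle tumours. Vertical scales differ between panels.

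Irf9 is the DNA-binding subunit of ISGF3 and is itself induced by interferon. Its probe (NM_001159417, mm9 chr14:56228806-56228865) read 0.13, 0.70, 1.31 and 0.93 in AZD1480 tumours 1 to 4, against 1.69, 1.86, 1.76 and 2.26 in vehicle tumours 1 to 4. In linear terms these were 109%, 163%, 247% and 190% of the array's 75th percentile in AZD1480 tumours, and 324%, 363%, 339% and 478% in vehicle tumours. The highest AZD1480 tumour lay 0.39 below the lowest vehicle tumour. The means were 0.76 ± 0.49 in AZD1480 tumours and 1.89 ± 0.25 in vehicle tumours (SD, n = 4 each). The difference was -1.13 (SE 0.27, 95% interval -1.76 to -0.50), that is 45.7% of the vehicle level, with a limma adjusted p of 0.974. An exact two-sided permutation test of this gene alone gave p = 0.0286, the smallest that 4 against 4 tumours allow. Irf9 ranked 48th of 19778 genes by limma p. The difference was -1.36 on slide 1, -0.89 on slide 2 and -0.92 without AZD1480 replicate 1.

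Irf7 is the interferon-inducible factor that amplifies interferon alpha production. Its probe (NM_016850, mm9 chr7:148450664-148451014) covers 351 genomic positions with 60 bases, so it crosses at least 1 exon junction and reads spliced RNA. Its sequence is shown because the largest difference of the family rests on this probe alone.
Irf7 probe: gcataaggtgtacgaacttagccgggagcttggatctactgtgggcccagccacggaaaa

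This probe read -5.60, -4.03, -2.19 and -2.96 in AZD1480 tumours 1 to 4, against -1.30, -1.80, -1.75 and -0.38 in vehicle tumours 1 to 4. As linear signal these were 2.06%, 6.14%, 22% and 12.9% of the array's 75th percentile in AZD1480 tumours, and 40.6%, 28.7%, 29.7% and 76.8% in vehicle tumours. It was well above background on all 8 arrays, and the groups were 0.39 apart at their closest. The AZD1480 tumours spread widely, and the lowest was replicate 1. Means were -3.69 ± 1.48 in AZD1480 tumours and -1.31 ± 0.66 in vehicle tumours (SD, n = 4 each). The difference of -2.38 (SE 0.72, 95% interval -4.05 to -0.72) corresponds to 19.2% of the vehicle level, or 5.22-fold lower, with a limma adjusted p of 0.974. The exact two-sided permutation test gave p = 0.0286, again the smallest possible. Irf7 ranked 130th of 19778 genes by limma p. Without AZD1480 replicate 1 the difference was -1.75, or 29.8% of the vehicle level, and within slides 1 and 2 it was -3.26 and -1.51.

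Irf3 is made constitutively and is activated by phosphorylation rather than by new transcription. Its probe (NM_016849, mm9 chr7:52257700-52257759) read 3.21, 3.39, 3.29 and 3.39 in AZD1480 tumours, against 3.21, 3.18, 3.27 and 3.37 in vehicle tumours. The groups overlap, and all 8 values lay between 3.18 and 3.39. The difference was 0.06 (SE 0.13, 95% interval -0.24 to 0.37, limma adjusted p 0.983), so a change of the size measured for Irf9 lies outside the interval for Irf3.

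Set against Irf3 within each tumour, and relative to the vehicle mean of that ratio, Irf7 stood at -4.25, -2.85, -0.91 and -1.78 in AZD1480 tumours on the log2 scale, against 0.05, -0.41, -0.46 and 0.82 in vehicle tumours. Irf9 over Irf3 stood at -1.72, -1.32, -0.62 and -1.10 in AZD1480 tumours and at -0.16, 0.05, -0.15 and 0.26 in vehicle tumours. Irf9 over Irf1 stood at -1.44, -0.55, -0.51 and -0.63 in AZD1480 tumours and at -0.50, 0.22, -0.05 and 0.33 in vehicle tumours. In these 3 ratios the groups did not overlap. Irf3 varied less over the tumours than the 0.39 gap of Irf7 and of Irf9. The ratios over Irf3 therefore could not overlap and only restate the values of Irf7 and Irf9. For Irf9 over Irf1 the highest AZD1480 value, -0.51, lay next to the lowest vehicle value, -0.50. Irf1 over Irf2 and Irf8 over Irf5 overlapped, with AZD1480 means of 0.03 and -0.14. These ratios are descriptions and were not tested.

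Irf1, an activator induced by interferon gamma, and Irf2, its relative that binds the same elements, both had somewhat lower means in AZD1480 tumours, with overlapping groups. Irf1 (NM_008390, mm9 chr11:53590746-53590805) read 2.24, 1.92, 2.49 and 2.23 in AZD1480 tumours, against 2.86, 2.31, 2.48 and 2.59 in vehicle tumours. Replicates 1, 2 and 4 of AZD1480 lay below all vehicle tumours and replicate 3 did not. The difference was -0.34 (SE 0.19, 95% interval -0.78 to 0.09), or 78.8% of the vehicle level, with a limma adjusted p of 0.974 and an exact permutation p of 0.0857. A second Irf1 probe (NM_001159393, mm9 chr11:53591817-53591876) was well above background on only 1 AZD1480 array (replicate 1) and 1 vehicle array (replicate 2) and was not tested. It read -4.42, -8.52, -9.50 and -7.39 in AZD1480 tumours, against -9.07, -6.79, -8.69 and -9.52 in vehicle tumours.

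Irf2 (NM_008391, mm9 chr8:47932486-47932545) read -1.30, -1.88, -1.23 and -1.52 in AZD1480 tumours, against -0.58, -1.41, -1.28 and -1.16 in vehicle tumours. Vehicle replicate 1 was the highest tumour, and the other 7 lay between -1.88 and -1.16. The difference was -0.37 (SE 0.24, 95% interval -0.92 to 0.18), or 77.2% of the vehicle level, with a limma adjusted p of 0.974 and an exact permutation p of 0.171. Both Irf1 and Irf2 were further apart on slide 1, at -0.51 and -0.59, than on slide 2, at -0.18 and -0.15. Without AZD1480 replicate 1 they differed by -0.35 and -0.44, and without vehicle replicate 1, the highest tumour for both, by -0.24 and -0.20.

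Irf8, a factor required for monocyte and dendritic cell development, owed most of its difference to 1 tumour. Its probe (NM_008320, mm9 chr8:123280324-123280383) read -2.11, -0.27, -0.03 and -0.45 in AZD1480 tumours, against -0.30, -0.33, 0.07 and 0.14 in vehicle tumours. AZD1480 replicate 1 lay far below the other 7 tumours, which overlapped. The difference was -0.61 (SE 0.44, 95% interval -1.64 to 0.42, limma adjusted p 0.974, exact permutation p 0.200), and it was -0.15, or 90.4% of the vehicle level, without that tumour. It was -0.88 on slide 1, which holds that tumour, and -0.35 on slide 2.

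Irf5, which mediates Toll-like receptor signals in macrophages, varied most through a vehicle tumour. Its probe (NM_012057, mm9 chr6:29486901-29486960) read -0.57, -1.40, -0.58 and -1.86 in AZD1480 tumours, against 0.80, -1.13, -1.02 and -1.17 in vehicle tumours. Vehicle replicate 1 stood far above the other 3 vehicle tumours, which lay inside the range of the AZD1480 tumours. The difference was -0.47 (SE 0.52, 95% interval -1.67 to 0.72, limma adjusted p 0.974, exact permutation p 0.514), and it was 0.0042 without vehicle replicate 1. It was -0.82 on slide 1, which holds that tumour, and -0.12 on slide 2.

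Irf4, a factor of activated lymphocytes and plasma cells, was near the detection limit. Its only probe (NM_013674, mm9 chr13:30858532-30858591) read -7.20, -7.51, -5.85 and -6.58 in AZD1480 tumours, against -6.95, -6.79, -6.28 and -8.04 in vehicle tumours. It was well above background only in AZD1480 replicate 3 and in vehicle replicates 2 and 3. It was not tested, and no fold is given.

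**Figure D2:**
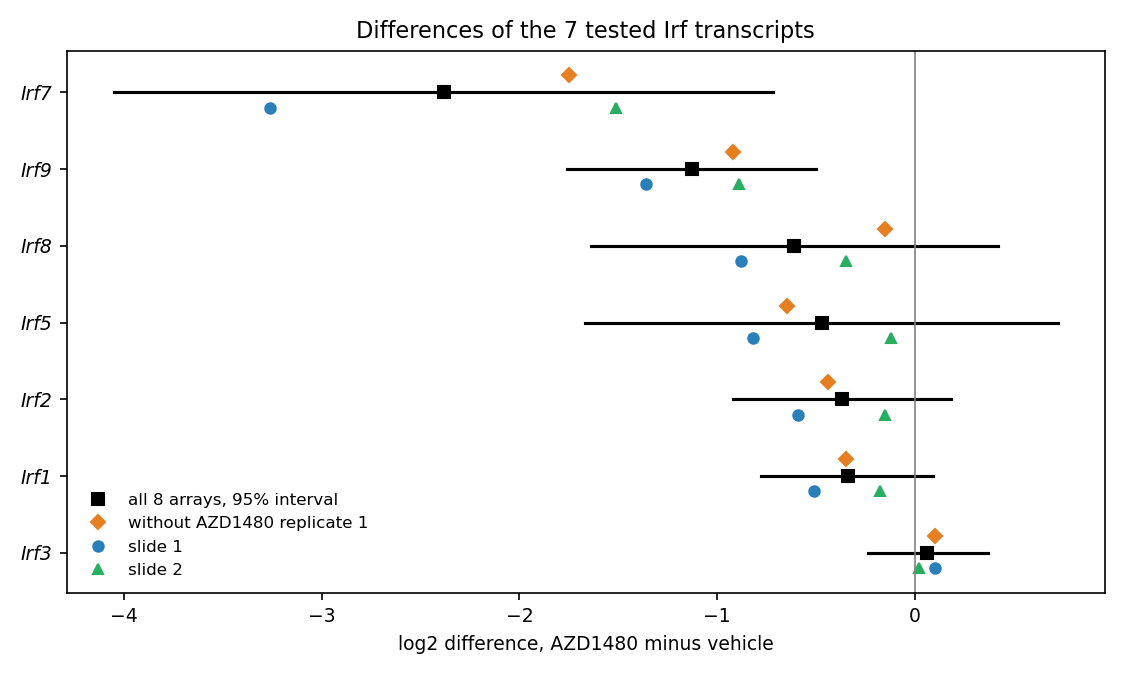
Log2 difference, AZD1480 minus vehicle, for the 7 tested Irf genes, ordered by size. Squares with lines are the fit on all 8 arrays with its 95% interval, diamonds the value without AZD1480 replicate 1, circles slide 1 and triangles slide 2. The intervals of Irf7 and Irf9 lie below 0 and the other 5 include 0; these intervals are for single genes and are not adjusted.

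The pathway that feeds the Irf family was described by lists of genes around it. Of 9 interferon receptor and receptor-signalling genes, all measured, 6 had lower and 3 higher means in AZD1480 tumours, the median difference was -0.10, and 0 had groups that did not overlap. Over all genes tested the median was 0.045. The receptor chains differed by -0.05 ± 0.17 for Ifnar1, -0.10 ± 0.18 for Ifnar2, -0.21 ± 0.19 for Ifngr1 and 0.03 ± 0.22 for Ifngr2 (log2 difference ± SE). Stat2, the ISGF3 subunit that binds Irf9, differed by -0.53 ± 0.21, with overlapping groups. Jak2, the kinase of the interferon gamma receptor, differed by -0.58 ± 0.37, and by -0.22 without AZD1480 replicate 1. The list median was -0.17 without that tumour and -0.21 without vehicle replicate 3.

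Interferon ligands had higher means in AZD1480 tumours, most of all in replicate 4. Of 16 listed ligand genes, 9 were measured and all 9 had a higher mean in AZD1480 tumours, with a median difference of 0.35, of 0.03 on slide 1 and 0.74 on slide 2, and of 0.13 without AZD1480 replicate 4 and 0.57 without AZD1480 replicate 3. Averaged over the 9 genes, AZD1480 tumours 1 to 4 stood 0.18, 0.50, -0.12 and 1.16 from the vehicle mean on the log2 scale, against 0.14, 0.41, -0.31 and -0.24 for vehicle tumours 1 to 4. These genes were dim, with vehicle means between -6.26 and -4.01. AZD1480 replicate 4 was also the dimmest array, with a 75th percentile of 1587. Its lowest signal well above background, -6.42, was the highest such limit of the 8 arrays. The part of this dimness in the ligand values was not tested. Ifna14 differed by 0.83 ± 0.27, Ifna2 by 0.34 ± 0.26 and Ifna12 by 0.65 ± 0.54 (log2 difference ± SE), and each overlapped between groups. The interferon alpha genes are near-identical copies whose probes may read more than one of them, so single values are uncertain. Ifna4, Ifna11 and Ifne did not reach a signal well above background on any array, and Ifnb1 and Ifng were so on 1 array each.

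Sensors, adaptors and kinases that activate Irf3, Irf5 and Irf7 were mixed in direction. Of 18 measured genes, 11 were lower and 7 higher, with a median difference of -0.16 (-0.09 without AZD1480 replicate 1). Against 1.41% of all genes tested, 2 were lower in every AZD1480 tumour than in every vehicle tumour. These were Tlr3, the endosomal double-stranded RNA receptor, at -1.13 ± 0.27, and Ifih1, the cytosolic RNA sensor MDA5, at -1.16 ± 0.31 (log2 difference ± SE). Ddx58, the cytosolic RNA sensor RIG-I, differed by -0.82 ± 0.33 with overlapping groups. The largest difference of the list was that of Tlr4, the lipopolysaccharide receptor, at -1.76 ± 0.93 with overlapping groups, and at -0.74 without AZD1480 replicate 1. Ifih1 read -1.29, -0.34, 0.23 and -0.39 in AZD1480 tumours, against 0.87, 0.72, 0.43 and 0.83 in vehicle tumours, and was thus lower in all 4 AZD1480 tumours.

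Known targets of ISGF3, the complex that holds Irf9, all had lower means in AZD1480 tumours. All 16 listed genes were measured, 11 did not overlap between groups, 9 had an unadjusted limma p under 0.05 and 0 passed adjustment. Over all genes tested, 1.41% were lower without overlap and 1.74% were lower at that unadjusted p. The list was chosen with earlier results of these data known. Their median difference was -2.11, and -1.33 without AZD1480 replicate 1. The summed linear level, with the vehicle mean set to 100%, was 15.7%, 40.8%, 68.9% and 55.7% in AZD1480 tumours 1 to 4, against 89.2% to 127% in vehicle tumours. AZD1480 replicate 1 had the lowest sum and replicate 3 the highest of its group, the same order of the 4 AZD1480 tumours as for Irf7 and Irf9 at both ends. Genes with the smallest p included Ifi44 at -3.51 ± 0.60 and Ifit3, which binds viral RNA together with Ifit1, at -2.61 ± 0.66 (log2 difference ± SE). Ifit3 read -3.49, -0.75, -0.38 and -0.89 in AZD1480 tumours and 1.34, 1.27, 0.70 and 1.62 in vehicle tumours. The smallest p was that of Mx1, which was well above background on 1 AZD1480 array and all 4 vehicle arrays, so that only a bound can be given. With its dim arrays raised to the lowest signal well above background on them, Mx1 was at least 11.7-fold lower in AZD1480 tumours, and it is 1 of the 11 genes without overlap.

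Listed targets of Irf1, which include antigen-presentation genes and also genes such as Casp1 and Nos2, mostly had lower means in AZD1480 tumours. Of 13 measured genes, 11 were lower and 2 higher, with a median difference of -0.68 (-0.70 without AZD1480 replicate 1). Without overlap 4 were lower, at an unadjusted limma p under 0.05 6 were lower, and 0 passed adjustment. Over all genes tested these lower shares were 1.41% and 1.74%. The immunoproteasome subunits Psmb9 and Psmb8 differed by -0.94 ± 0.16 and -1.03 ± 0.17, and Nlrc5, the activator of MHC class I genes, by -2.20 ± 0.53 (log2 difference ± SE). Psmb8 read 1.22, 1.44, 1.35 and 0.86 in AZD1480 tumours, against 2.45, 2.16, 2.24 and 2.15 in vehicle tumours, and its difference was -1.03 without AZD1480 replicate 1 as well.

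Myeloid targets of Irf8 overlapped in every case. Of 7 measured genes, 6 were lower and 1 higher, with a median difference of -0.36, and -0.17 without AZD1480 replicate 1. The smallest p belonged to Ctsc, the protease cathepsin C, at -0.73 ± 0.32, Cybb, a subunit of the phagocyte NADPH oxidase that is also in the Irf1 list, at -0.68 ± 0.38, and Il18, an inflammatory cytokine, at -0.88 ± 0.63 (log2 difference ± SE). Without AZD1480 replicate 1 these were -0.44, -0.32 and -0.23. Partners and corepressors of Irf proteins, such as the ETS factor Spi1 that binds DNA with Irf4 and Irf8, showed 6 lower and 7 higher among 13 measured genes, with a median difference of 0.02, and -0.09 without AZD1480 replicate 1. The coactivator Crebbp differed by 0.47 ± 0.29, the lymphoid factor Ikzf1 by -0.86 ± 0.54 (-0.36 without AZD1480 replicate 1) and the Irf4 partner Batf by -0.26 ± 0.23, all overlapping.

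**Figure D3:**
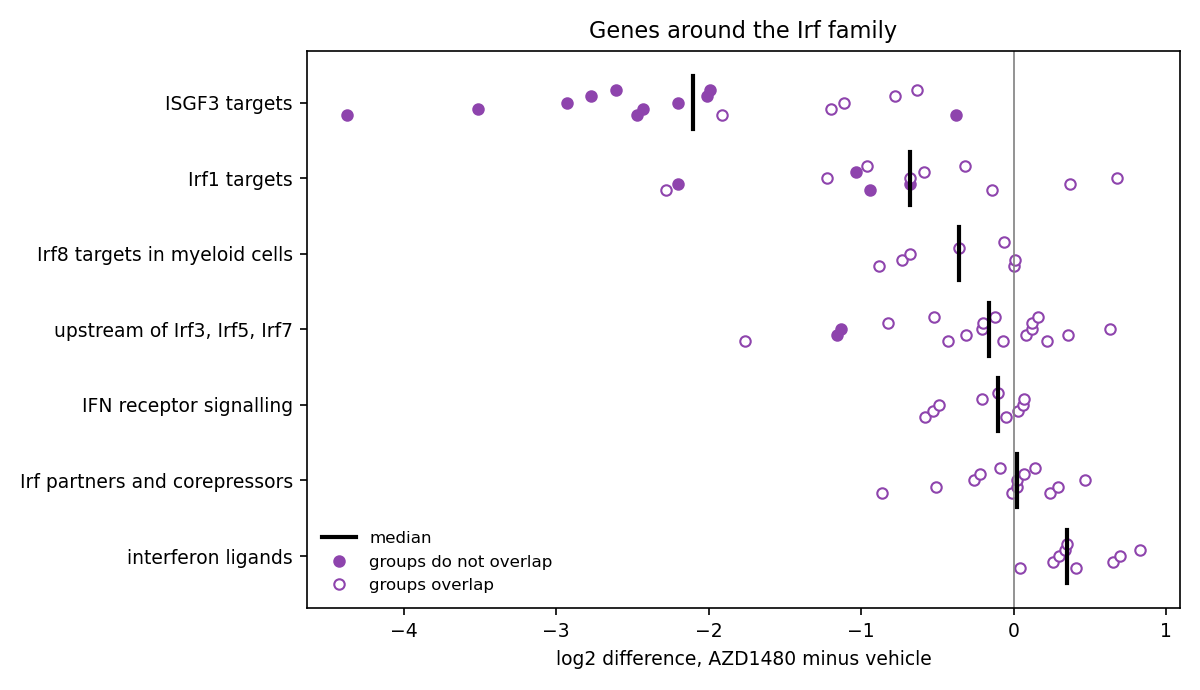
Log2 difference, AZD1480 minus vehicle, of every measured gene in 7 lists around the Irf family, with 1 point a gene; filled points are genes whose groups do not overlap and black bars are list medians. The ISGF3 target list has 11 filled points of 16 and a median of -2.11, and the interferon ligand list has 9 points above 0. Over all genes tested, 1.41% were lower without overlap.

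Macrophage and monocyte markers mostly had lower means in AZD1480 tumours, above all in replicate 1, where Irf8 was lowest. Of 12 macrophage and monocyte markers 11 were measured, 9 lower and 2 higher, with a median difference of -0.44, and -0.06 without AZD1480 replicate 1. Their summed linear level was 49.3%, 90.8%, 81.2% and 226.5% of the vehicle mean in AZD1480 tumours, against 92.2% to 113.4% in vehicle tumours. The high sum of AZD1480 replicate 4 comes from the integrin gene Itgam, which read 5.52 there and 2.10 to 3.89 in the other 7 tumours. Averaged over the 11 genes on the log2 scale, AZD1480 tumours 1 to 4 stood -1.39, -0.46, -0.08 and -0.28 from the vehicle mean, against -0.16 to 0.11 for vehicle tumours, and Cd163 did not read well above background on any array. The Fc receptors Fcgr3 and Fcgr1 differed by -0.92 ± 0.24 and -1.39 ± 0.50 without overlap, and the mannose receptor Mrc1 by -1.04 ± 0.31 with overlap (log2 difference ± SE). Without AZD1480 replicate 1 these were -0.81, -0.92 and -0.97. In AZD1480 replicate 1 the monocyte receptor Cd14 read -2.98 and the macrophage gene Aif1 -0.43, against vehicle ranges of 0.21 to 0.62 and 1.37 to 1.88. Dendritic cell markers did not share 1 direction. Of 9 listed 8 were measured, 3 lower and 5 higher, with a median of 0.20, which was -0.83 on slide 1, 0.52 on slide 2 and -0.45 without AZD1480 replicate 4. They had summed levels of 83.5% to 258.1% in AZD1480 tumours and 87.5% to 110.1% in vehicle tumours. These sums mostly reflect Siglech, whose vehicle mean was 5.58, against -2.90 or lower for the other measured genes of the list. The highest was AZD1480 replicate 4, where Siglech, a gene of plasmacytoid dendritic cells, read 6.97 against 5.33 to 5.73 in the other 7 tumours. Itgam also read highest in that tumour, whose array was the dimmest. Whether the Siglech probe reads plasmacytoid dendritic cells here was not tested. Xcr1 did not read well above background on any array. The lectin Clec10a differed by -1.20 ± 0.47, Cd209a by -1.81 ± 0.94 and Zbtb46, a factor of conventional dendritic cells, by 0.48 ± 0.35, which without AZD1480 replicate 1 were -0.76, -1.02 and 0.15. Cd209a was well above background on all 4 vehicle arrays but on only 1 AZD1480 array, so its difference is uncertain. It was -1.17 with dim arrays raised to the lowest signal well above background on them. The part of these markers in the Irf values was not tested.

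**Figure D4:**
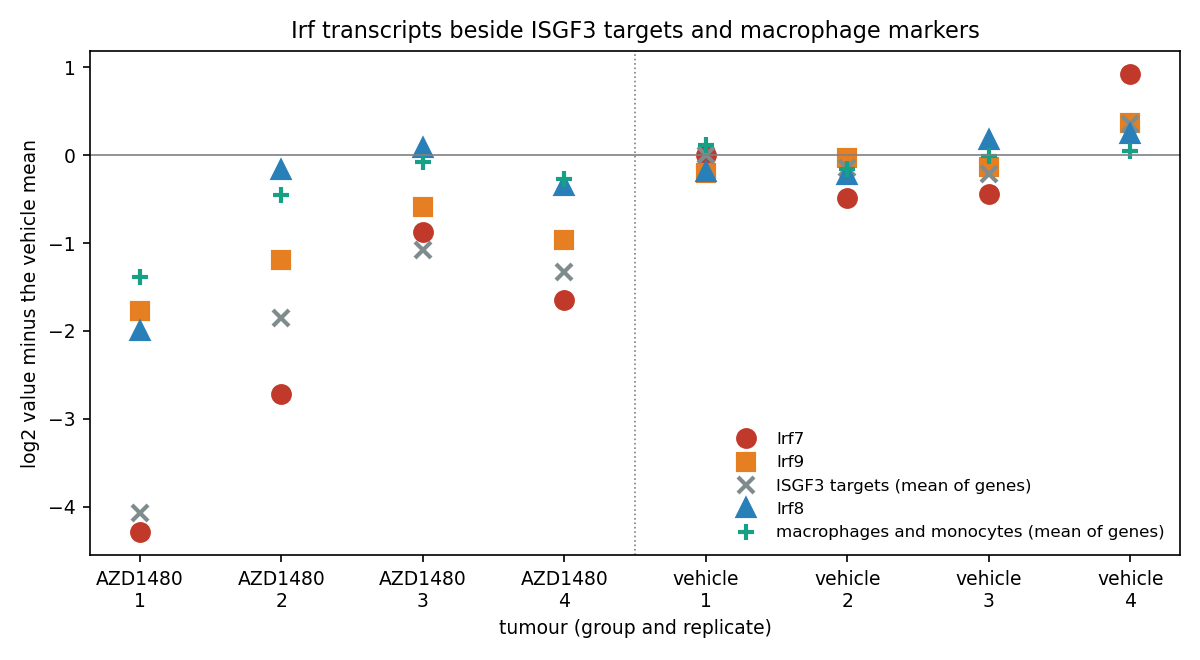
Log2 value of each tumour minus the vehicle mean, for Irf7, Irf9 and Irf8 and for the mean of the ISGF3 target list and of the macrophage and monocyte list, with AZD1480 tumours 1 to 4 on the left and vehicle tumours 1 to 4 on the right. Irf7, Irf9 and the ISGF3 targets are below 0 in all 4 AZD1480 tumours, whereas Irf8 is far below 0 in AZD1480 replicate 1 only.

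The genes whose log2 values ran most like each tested member over the 8 arrays were listed by Pearson r, as a description across arrays that share slides. Irf members and symbols that are clone, model or accession names were left out. For Irf9 these were Zbp1, a nucleic acid sensor (r = 0.983), and Apol9a (r = 0.977), which differed by -2.59 ± 0.67 and -1.98 ± 0.53 (log2 difference ± SE). For Irf7 they were Ly6a, the surface protein Sca-1 (r = 0.988), and Bcas3 (r = 0.985), which differed by -1.94 ± 0.60 and -0.36 ± 0.16. Irf8 ran most like Meis2 and Ddx20 (r = 0.995 each). Irf5 ran most like Nkain4 (r = 0.985) and Xpnpep2 (r = 0.974). Irf8 and Irf5 each had 1 outlying tumour, AZD1480 replicate 1 and vehicle replicate 1, which weighs heavily in their r. Irf1 ran most like Mocos (r = 0.961) and Prkd2 (r = 0.959), Irf2 most like Cblb (r = 0.967) and Isyna1 (r = 0.953), and Irf3 most like Faim2 (r = 0.979) and Aff3 (r = 0.945). Each of the 7 tested members, Irf3 included, thus had 2 genes with an r of at least 0.945 among the 19778 genes.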

How the data were processed

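RNA from 4 AZD1480 and 4 vehicle tumours, each from another mouse, was hybridised to Agilent one-colour (Cy3) arrays. Agilent Feature Extraction 9.5.3 read the scans, per the submitters' processing notes. Each spot has, per the file headers, a processed intensity, background-subtracted and not scaled between arrays, with flags for signal well above background. The authors also deposited a value table on a log2 scale, whose columns share a median of 8.364. It served as an alternative. The sources used here do not give its offset.

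The log2 processed intensity was set relative to each array's 75th percentile over spots that are not controls. Probes well above background on at least 4 of 8 arrays were kept (28340), and the brightest kept probe stood for a gene, 19778 in all. The AZD1480 and vehicle groups were compared by limma (version 3.58.1, R 4.3.3), with no term but treatment, two-sided tests and Benjamini-Hochberg adjustment over all genes at a threshold of 0.05. The fit was tested on simulated data. Intervals are 95% intervals of limma. Exact permutation tests used all 70 ways of drawing 4 of 8 tumours. Signal near background and 4 arrays per group limit the precision.

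Probe positions on mm9 were read from the array files. Of 39429 probes, 26055 were named through a RefSeq accession, 8652 kept the file's name and 4722 had no symbol.

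The members, gene lists and rules were chosen with earlier results of these data known. Named are all members, up to 3 genes of each list described with the smallest limma p, Stat2 and the interferon receptors, the 2 genes most like each member, and markers never well above background. Some genes of the lists are not reported here by name. The values of Ifih1, Ifit3, Psmb8, Cd14, Aif1, Itgam, Siglech, Wt1, Krt8, Krt18, Epcam, Amhr2 and Muc16 by tumour, and the mention of Tlr4, Spi1, Casp1 and Nos2, were chosen after their values were seen. Alternatives were other scalings, background correction, filters, probe rules, the value table, slide, array weights, the replicate number as a block and each array left out. Same-numbered tumours of the groups deviated with correlations of 0.36, 0.36, 0.13 and -0.06, so the numbers were not taken to pair them.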

Additional observations from a re-analysis of the deposited data

Results flagged for a closer look

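Irf5 in vehicle replicate 1 was far from the rest of its group. It read 0.80 on the log2 scale relative to the array's 75th percentile, against -1.13, -1.02 and -1.17 in the other 3 vehicle tumours, and the gap to the nearest of them was 0.922 of the group's range. Among 18 groups of 4 tumours examined (9 probes in 2 groups), 1 such value was found and chance gives about 0.9.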

How the results depend on the processing

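Under all 21 alternatives, 0 genes and 0 Irf members passed limma's adjusted threshold, and the lowest adjusted p of Irf7 and Irf9 was 0.501. The members lower in every AZD1480 tumour numbered 2 or 3, and 3 within each slide, where 2 tumours face 2. Groups of 2 against 2 separate far more easily by chance than 4 against 4. Their share over all genes was not taken, so the 3 cannot be set against one. The difference ranged from -3.26 to -1.51 for Irf7, from -1.36 to -0.89 for Irf9, from -0.51 to -0.18 for Irf1, from -0.59 to -0.15 for Irf2, from -0.88 to -0.15 for Irf8 and from 0.01 to 0.10 for Irf3. Leaving out 1 tumour at a time gave -2.89 to -1.75 for Irf7 and -1.31 to -0.92 for Irf9. Irf5 was 0.0042 without vehicle replicate 1, opposite in sign to -0.47 with all tumours, and leaving out 1 tumour at a time gave it -0.65 to 0.0042. With the replicate number as a block, Irf7 stayed at -2.38 (SE 0.65) and Irf9 at -1.13 (SE 0.23), and 5 of 8 arrays correlated best with their own number. Within slide 1 alone, list medians were -0.21 for receptor signalling, -3.21 for ISGF3 targets, -1.03 for Irf1 targets, -0.94 for macrophages, -0.83 for dendritic cells, -0.86 for T cells and -0.25 for neutrophils. Within slide 2 those lists had medians of -0.11, -1.17, -0.71, -0.22 and 0.52, and T cells had 0.02 and neutrophils -0.88. Leaving out 1 tumour gave list medians from -0.21 to -0.07 for receptor signalling, -0.45 to 0.27 for dendritic cells (the lowest without AZD1480 replicate 4) and -0.50 to 0.33 for B and plasma cells (the highest without AZD1480 replicate 1). It turned the sign of the medians of neutrophils (-0.55 to 0.26), endothelium (-0.19 to 0.14), stroma (-0.55 to 0.08), partners (-0.09 to 0.05) and granulosa and luteal cells (-1.69 to 0.19) as well. The cause of these moves was not tested. Fewer arrays are in each of these fits.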

Other observations

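Markers of the other cell types in the tumours were described in the same way, as log2 differences of AZD1480 minus vehicle, and 0 passed the adjusted limma threshold. B and plasma cell markers, of interest for Irf4, showed 5 lower and 4 higher of 9 measured, with a median difference of -0.17, and 0.33 without AZD1480 replicate 1. T cell markers showed 5 lower and 2 higher of 7, with a median of -0.49, and -0.08 without AZD1480 replicate 1. Natural killer cell markers had a median of -0.15 over 4 measured genes, and of 0 without AZD1480 replicate 1, with Ncr1 not reading well above background on any array. Neutrophil markers had a median of -0.09 over 6, and -0.55 without AZD1480 replicate 1. Endothelial markers had a median of -0.04 over 8, stromal markers -0.25 over 8 and granulosa and luteal cell markers -0.41 over 4. Without AZD1480 replicate 1 these 3 medians were -0.19, 0.08 and -1.69, and the granulosa and luteal median was 0.19 without vehicle replicate 3, 0.58 on slide 1 and -1.40 on slide 2. The granulosa and luteal genes split the tumours of both groups. Their log2 average stood 3.08, -2.01, -2.17 and -1.15 from the vehicle mean in AZD1480 tumours 1 to 4. In vehicle tumours 1 to 4 it stood at 1.99, -2.30, 2.87 and -2.57. The part of this split in the Irf values was not tested. All 12 epithelial and ovarian tumour markers had lower means in AZD1480 tumours, with a median of -0.47, which was -0.22 without vehicle replicate 1, and 0 of them had groups that did not overlap. At an unadjusted limma p under 0.05 stood 1 endothelial marker, Vwf, the von Willebrand factor gene, at -1.12 ± 0.32, and 1 tumour marker, Wfdc2, which encodes the ovarian cancer antigen HE4, at -1.31 ± 0.51 (log2 difference ± SE). Vwf was lower in all 4 AZD1480 tumours than in any vehicle tumour.

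Vehicle replicate 1, the tumour with the highest Irf1, Irf2 and Irf5 values, also had the highest values of several epithelial genes. The adhesion gene Epcam read -5.46 to -3.44 in AZD1480 tumours, -0.29 in vehicle replicate 1 and -4.65 to -1.92 in the other 3 vehicle tumours. Cdh1, which encodes E-cadherin, read -6.26 to -2.59 in AZD1480 tumours, -0.75 in vehicle replicate 1 and -4.69 to -0.92 in the other 3 vehicle tumours. These genes were chosen after their values were seen, and their part in the Irf5 value was not tested.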
